A study of Mus musculus with 8 samples.

Results

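The mitochondrially encoded transcripts are the RNAs made from the mitochondrial genome itself. They were taken as every gene whose symbol starts with mt-, which gave 37 of the 55487 genes listed in each library: 13 mRNAs, 2 rRNAs and 22 tRNAs. RNA was sequenced from the dorsomedial hypothalamus (DMH) of mice, part of the brain's control of food intake, wakefulness and the daily cycle, and the LMD in the sample names stands for laser microdissection. In 4 libraries, called shPpp1r17, a short hairpin RNA had been used against Ppp1r17, which encodes an inhibitor of protein phosphatases. In the other 4, called shfLuc, the hairpin was directed at luciferase, a firefly gene that mice lack, so both groups carry a hairpin. The sources used here give no strain, age or route of hairpin delivery. Nothing in the labels ties a library to its own animal, so the p-values are against the spread of these libraries, part of which may be technical.

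Mitochondrial DNA is transcribed into long precursors from both strands, and most of the tRNAs in them are cut out so that rRNAs and mRNAs are released between them. The 2 rRNAs build the mitochondrial ribosome. It translates 13 coding sequences into membrane subunits of complex I, complex III, complex IV and complex V (ATP synthase). Each coding sequence is called an mRNA below, also where 2 of them share a molecule. All other subunits of these complexes, and all proteins that transcribe and process the mitochondrial RNA, come from nuclear genes. In mammals most mitochondrial mRNAs carry a short poly(A) tail, and in several of them that tail completes the stop codon.

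Some of these genes cannot be counted independently, and the sequences below show why. The transcripts come from GENCODE M21 (GRCm38), in which all 37 members have the length given in the deposited tables; the sources used here do not give the authors' build. The coding sequences of mt-Nd4l and mt-Nd4 lie on a shared mRNA and overlap by the 7 bases in capitals (chrM:10144-10173 and chrM:10167-10196, plus strand). Those of mt-Atp8 and mt-Atp6 also lie on a shared mRNA and overlap by 43 bases.
mt-Nd4l, end: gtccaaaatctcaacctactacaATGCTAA
mt-Nd4, start: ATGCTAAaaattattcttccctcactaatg
The mRNAs of mt-Co3 (chrM:9361-9390), mt-Nd4 (chrM:11515-11544) and mt-Cytb (chrM:15259-15288) end on the T in capitals, which becomes a stop codon once the poly(A) tail is added.
mt-Co3, end: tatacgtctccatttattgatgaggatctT
mt-Nd4, end: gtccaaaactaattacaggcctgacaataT
mt-Cytb, end: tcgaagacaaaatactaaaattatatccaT
Other members share their sequence with unprocessed pseudogenes in the nuclear genome. Within 483 aligned bases, mt-Co1 (chrM:6390-6419) and the pseudogene Gm29216 differ at a single base, A1066T, and within 345 bases mt-Nd3 (chrM:9459-9488) and Gm28438 differ at T3C. Positions are counted from the first base of the mitochondrial gene, and the base that differs is in capitals.
mt-Co1: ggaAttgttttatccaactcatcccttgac
Gm29216: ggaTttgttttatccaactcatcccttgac
mt-Nd3: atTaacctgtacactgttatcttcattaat
Gm28438: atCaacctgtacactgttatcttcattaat

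The larger rRNA, mt-Rnr2, and the complex I mRNAs mt-Nd4l and mt-Nd2 fell in shPpp1r17, each by about 30%, and no mitochondrial transcript rose. Of the 37 members, 21 had enough reads for the test across all genes: both rRNAs, the 13 mRNAs and 6 tRNAs. Of these 21, 3 fell, 0 rose and 18 did not pass the threshold of 0.05 on the adjusted p of edgeR's quasi-likelihood test. Over all 17339 genes tested, 2.66% were called lower and 3.39% higher. The log2 fold changes of all 15 rRNAs and mRNAs were below 0, with a median of -0.20, against a median of 0.0043 over all genes tested. The shPpp1r17 libraries 2 and 3 had the lowest scores on the first principal component over all genes (-46.9 and -46.0), and shfLuc 4 had the highest (43.6). These 2 shPpp1r17 libraries also held the least Ppp1r17, at 2.07 and 3.10 CPM against 87.7 and 87.2 CPM in shPpp1r17 1 and 4. Without both, 11 of these 15 were below 0 and none passed in edgeR (unadjusted p was below 0.05 for 4 members). With 1 library left out at a time, between 0 and 6 members passed, and the count was 0 without shPpp1r17 3, without shfLuc 2 and without shfLuc 3 (unadjusted p below 0.05 for 7, 8 and 8 members).

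**Figure D1:**
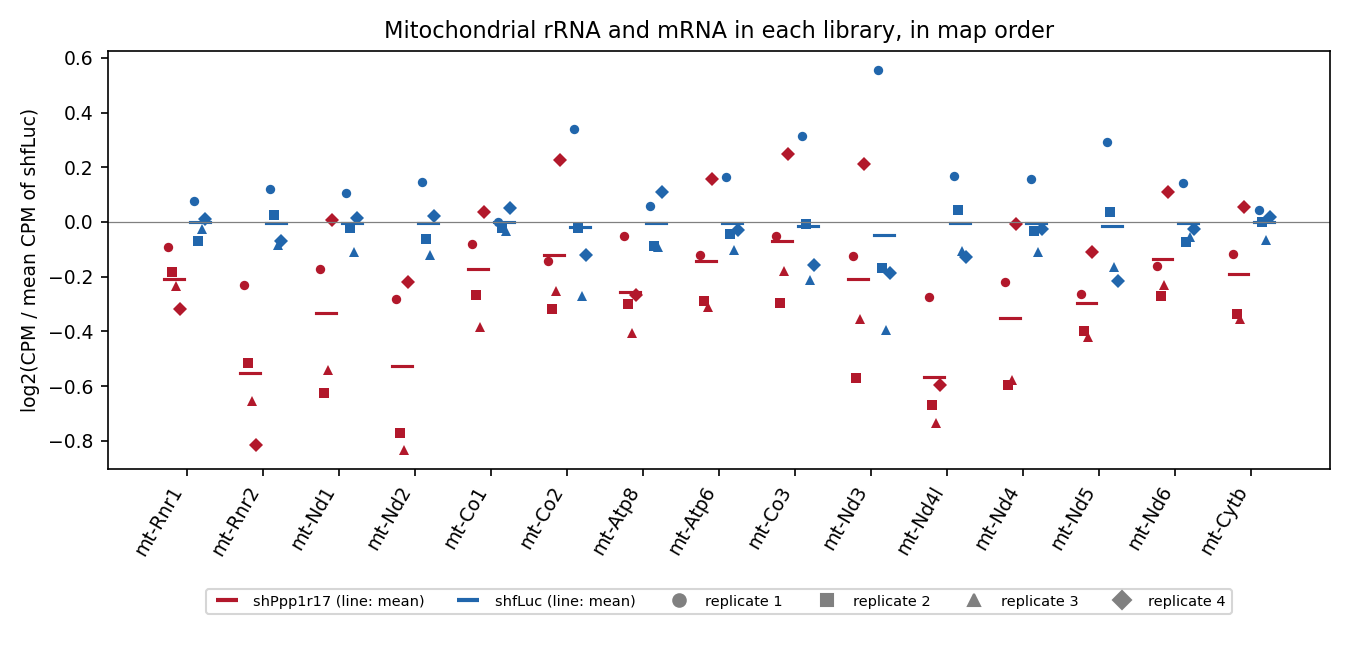
The plot shows the log2 ratio of each library's CPM (reads scaled to library size) to the mean CPM of the shfLuc libraries for the 15 rRNAs and mRNAs in map order, with shPpp1r17 in red and shfLuc in blue. In mt-Rnr1, mt-Rnr2, mt-Nd2 and mt-Nd4l the groups do not overlap, while shPpp1r17 replicate 4 stands at or above the shfLuc mean for mt-Co2, mt-Co3 and mt-Atp6 among others.

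The rRNA reads lay lower in every shPpp1r17 library. The RNA was prepared with an mRNA kit, so the amount of rRNA and its capture cannot be told apart here. mt-Rnr2, the RNA of the large ribosomal subunit (chrM:1094-2675), stood at 13403, 10999, 9992 and 8932 CPM in shPpp1r17 1 to 4, against 17083, 15987, 14821 and 14953 CPM in shfLuc 1 to 4. The highest shPpp1r17 library was below the lowest shfLuc library, and shPpp1r17 4 had the lowest value of all. Its log2 fold change was -0.54 (SE 0.10, adjusted p = 0.0129 in edgeR), a difference of -31.1%, and the exact two-sided permutation test on its CPM gave p = 0.0286, the lowest possible value with 4 libraries in each group. mt-Rnr1, the RNA of the small subunit (chrM:70-1024), stood at 1735, 1631, 1574 and 1483 CPM in shPpp1r17, against 1952, 1764, 1820 and 1866 CPM in shfLuc. These groups did not overlap either (exact permutation p = 0.0286), but the fitted log2 fold change of -0.20 (SE 0.062) did not pass across all genes (adjusted p = 0.0699 in edgeR). Among all genes tested, 6.74% had shPpp1r17 libraries that all lay below all shfLuc libraries; among the 15 rRNAs and mRNAs this held for 4.

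Complex I, the first enzyme of the respiratory chain, has 7 mitochondrially encoded subunits, and 2 of their mRNAs fell. mt-Nd4l (chrM:9877-10173), a small membrane subunit, stood at 157, 119.3, 114 and 125.6 CPM in shPpp1r17, against 213.4, 195.8, 176.2 and 173.7 CPM in shfLuc, with no overlap. The log2 fold change was -0.56 (SE 0.10, adjusted p = 0.0133 in edgeR), or -32.0%. With an offset for gene length and GC content, fitted on nuclear genes, it was -0.89 (adjusted p = 0.0128 in edgeR). The effective length of mt-Nd4l is 118 bases, and mt-Nd4, on the same mRNA, did not pass (log2 fold change -0.33). mt-Nd2 (chrM:3914-4951), one of the subunits related to ion antiporters, stood at 1414, 1007, 964.7 and 1477 CPM in shPpp1r17, against 1903, 1646, 1579 and 1743 CPM in shfLuc. Here too every shPpp1r17 library was below every shfLuc library, with shPpp1r17 2 and 3 lowest. Its log2 fold change was -0.50 (SE 0.13, adjusted p = 0.0361 in edgeR), or -29.2%, and without the shPpp1r17 libraries 2 and 3 it was -0.25 (adjusted p = 0.215).

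The other 5 complex I mRNAs did not pass, and their groups overlapped. mt-Nd1, the subunit nearest the site where ubiquinone binds, stood at 3750, 2738, 2897 and 4239 CPM in shPpp1r17, against 4545, 4157, 3911 and 4266 CPM in shfLuc. The low values were those of libraries 2 and 3, while shPpp1r17 4 lay within the shfLuc range (log2 fold change -0.31, SE 0.12, adjusted p = 0.133). The antiporter-like subunit mt-Nd4 showed the same arrangement of libraries, with 2990, 2304, 2332 and 3463 CPM in shPpp1r17 against 3876, 3403, 3225 and 3415 CPM in shfLuc (log2 fold change -0.33, SE 0.12, adjusted p = 0.112). mt-Nd5, another subunit of that kind, lay between 1634 and 2028 CPM in shPpp1r17 and between 1880 and 2674 CPM in shfLuc (log2 fold change -0.29, SE 0.11, adjusted p = 0.121). The small subunit mt-Nd3 lay between 150.2 and 258.3 CPM in shPpp1r17 and between 169.6 and 328.1 CPM in shfLuc (-0.18, SE 0.20, adjusted p = 0.639). These ranges overlapped widely. mt-Nd6 lay between 351.1 and 457 CPM in shPpp1r17 and between 401.8 and 467.4 CPM in shfLuc (-0.13, SE 0.088, adjusted p = 0.424). mt-Nd6 is the one mRNA copied from the opposite template strand; the sources used here do not say how strand was handled in the counting, so its reads and those of antisense precursors cannot be told apart.

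Complex III and complex IV, which pass electrons on to oxygen, were represented by mt-Cytb and by mt-Co1, mt-Co2 and mt-Co3, and none of these 4 mRNAs passed. mt-Cytb, the cytochrome b subunit, stood at 7536, 6476, 6386 and 8493 CPM in shPpp1r17, against 8437, 8170, 7807 and 8285 CPM in shfLuc. mt-Co1, the subunit that holds the site where oxygen is reduced, stood at 7455, 6553, 6040 and 8089 CPM in shPpp1r17, against 7886, 7762, 7702 and 8167 CPM in shfLuc. In both genes shPpp1r17 4 lay as high as the shfLuc libraries and libraries 2 and 3 lay below them. The log2 fold changes were -0.18 for mt-Cytb (SE 0.081, adjusted p = 0.209) and -0.16 for mt-Co1 (SE 0.078, adjusted p = 0.235). mt-Co3, a core subunit without a metal centre, stood at 8286, 6981, 7578 and 10183 CPM in shPpp1r17, against 10669, 8543, 7411 and 7689 CPM in shfLuc, with wide overlap. Its log2 fold change of -0.055 (SE 0.12, adjusted p = 0.84) has an approximate 95% interval of -0.295 to 0.184. mt-Co2, which takes the electrons from cytochrome c, lay between 3351 and 4895 CPM in shPpp1r17 and between 3465 and 5294 CPM in shfLuc, with a log2 fold change of -0.10 (SE 0.13, adjusted p = 0.691) and an interval of -0.362 to 0.153.

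The complex V mRNAs mt-Atp6, which encodes a part of the proton channel, and mt-Atp8, which encodes a small subunit beside it, did not pass. mt-Atp8 stood at 673.3, 565.9, 526.5 and 579.3 CPM in shPpp1r17, against 724.8, 655.4, 654.3 and 752.7 CPM in shfLuc, and shPpp1r17 1 alone reached into the shfLuc range. Its log2 fold change was -0.25 (SE 0.082, adjusted p = 0.0913 in edgeR), and with the offset for length and GC content it was -0.51 (adjusted p = 0.0879). mt-Atp6 stood at 4344, 3864, 3807 and 5259 CPM in shPpp1r17, against 5286, 4578, 4398 and 4626 CPM in shfLuc (log2 fold change -0.13, SE 0.095, adjusted p = 0.463). Median log2 fold changes were -0.37 over the 2 rRNAs, -0.31 over the 7 complex I mRNAs, -0.10 over the 3 of complex IV and -0.19 over the 2 of complex V. With the offset for length and GC content the medians were -0.35, -0.30, -0.17 and -0.36 in the same order of classes. Without the shPpp1r17 libraries 2 and 3 they were -0.35, -0.11, 0.052 and -0.069.

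**Figure D2:**
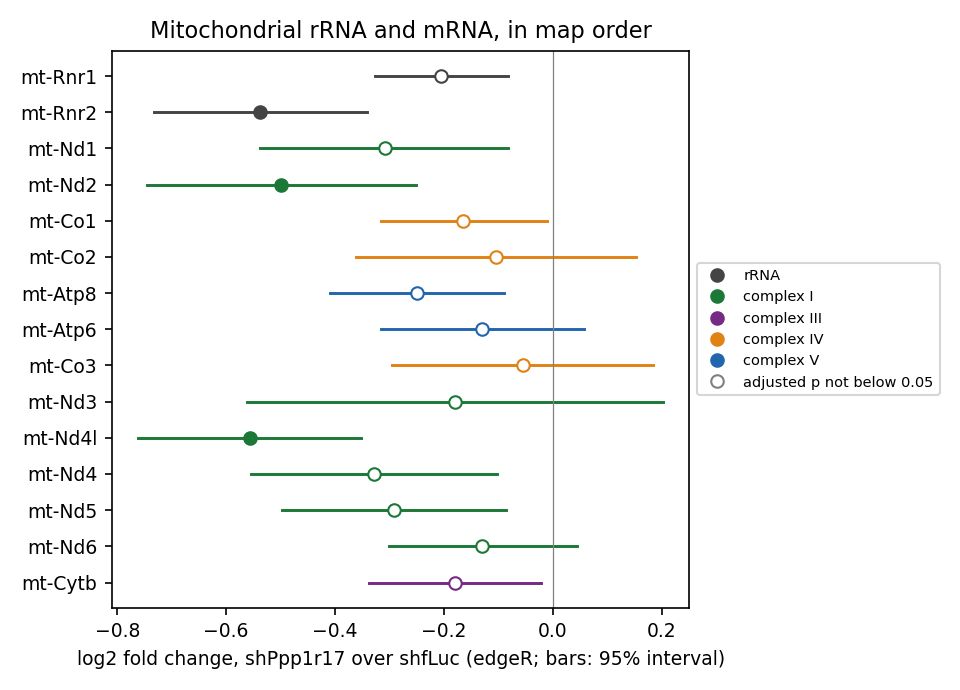
The plot gives the log2 fold change, shPpp1r17 over shfLuc, of each rRNA and mRNA from the edgeR fit, in map order, coloured by complex. Bars give an approximate 95% interval, taken from the SE under a normal distribution and narrower than the quasi-likelihood test implies. For mt-Co1 the bar (-0.316 to -0.011) leaves out 0, although the unadjusted p of that test was 0.0553. The filled points are mt-Rnr2, mt-Nd2 and mt-Nd4l, whose adjusted p was below 0.05, and all 15 points lie left of 0.

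The mitochondrial tRNAs, which carry amino acids to the mitochondrial ribosome, were hardly sampled. All 22 together had 133, 170, 176 and 156 reads in shPpp1r17 1 to 4 and 185, 113, 129 and 107 reads in shfLuc 1 to 4, and between 14 and 19 of the 22 genes had a read in a library. The 5 with the highest mean level were mt-Ta, mt-Tp, mt-Tv, mt-Tq and mt-Tm, the tRNAs for alanine, proline, valine, glutamine and methionine. mt-Ta had 27, 29, 25 and 28 reads in shPpp1r17, against 36, 17, 13 and 26 reads in shfLuc, the most of any tRNA gene. Log2 fold changes of the 6 tested tRNAs ran from -0.32 to 0.20 with adjusted p-values from 0.765 to 0.983, and SEs of 0.40 to 0.52 mean that differences of the size seen in mt-Rnr2 were not detectable at this depth. In the edgeR fit of all 8 libraries without an offset 1 of these 6 was below 0, and with limma on log2(TPM + 1) 3 were. With the offset for length and GC content all 6 were, at -0.81 to -0.49 with adjusted p-values from 0.334 to 0.614 in edgeR, so no direction is given for them. That offset was fitted on nuclear genes, of which 0% had a lower GC content than the lowest tested member. Genes this short have an effective length of 6.61 to 8.70 bases, so their levels per length were not compared with those of other genes.

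Per length, on the scale of TPM (reads scaled to effective length and library), the mRNAs stood far apart although they come from shared precursors. mt-Co3 was at 16642 ± 2763 TPM in shPpp1r17 and 18366 ± 2764 TPM in shfLuc (SD, n = 4 each), and mt-Nd5 was at 1318 ± 124.8 and 1714 ± 273.8 TPM. In shPpp1r17 the order by mean TPM was mt-Co3, mt-Atp8, mt-Atp6, mt-Rnr2, mt-Co2, mt-Cytb, mt-Co1, mt-Nd1, mt-Nd4, mt-Rnr1, mt-Nd2, mt-Nd3, mt-Nd6, mt-Nd4l and mt-Nd5. Over the 8 libraries, neighbours in this order overlapped except at 2 steps: between mt-Cytb and mt-Co1 and between mt-Nd1 and mt-Nd4. mt-Rnr1 and mt-Nd2 stood apart within each group but overlapped over the 8 libraries. mt-Rnr2 had rank 4 in shPpp1r17, at 9605 ± 1862 TPM, and rank 3 in shfLuc, at 14768 ± 1074 TPM. mt-Atp8 has an effective length of only 49.6 bases, which makes its level per length uncertain. mt-Nd4l and mt-Nd4 share an mRNA, yet stood at 1374 and 2864 TPM in shPpp1r17 and at 2091 and 3835 TPM in shfLuc. The level per length of mt-Nd4l, with an effective length of 118 bases, is thus uncertain too. The order also depends on the reads assigned to the nuclear pseudogenes. When these were counted with their genes, a step added after the data were seen, mt-Atp6 was at 19127 ± 3070 TPM in shPpp1r17, rank 2, and at 22252 ± 733.8 TPM in shfLuc, rank 1. mt-Cytb and mt-Co1 then overlapped over the 8 libraries, and mt-Nd1 and mt-Nd4 still did not.

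Summed, the members took 5.75%, 4.87%, 4.769% and 6.016% of all reads in shPpp1r17 1 to 4, against 7.157%, 6.39%, 6.001% and 6.149% in shfLuc 1 to 4. The groups overlapped by a small margin in shPpp1r17 4. The rRNAs alone took 1.24 ± 0.196% of reads in shPpp1r17 and 1.757 ± 0.114% in shfLuc, with no overlap, a difference of -0.516 percentage points out of the -1.07 points for all members. The mRNAs took 4.11 ± 0.647% in shPpp1r17 and 4.67 ± 0.404% in shfLuc, and their groups overlapped: 4.248%, 3.608%, 3.617% and 4.971% in shPpp1r17 1 to 4, against 5.247%, 4.612%, 4.322% and 4.488% in shfLuc 1 to 4. Library shPpp1r17 4 thus had the lowest rRNA share of the 8, 1.045%, and the second highest mRNA share. In TPM, where short genes weigh more, the members took 9.57 ± 1.18% in shPpp1r17 and 11.8 ± 0.754% in shfLuc, with no overlap. In bulk tissue, fewer mitochondria-rich cells and less mitochondrial RNA per cell cannot be told apart.

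**Figure D3:**
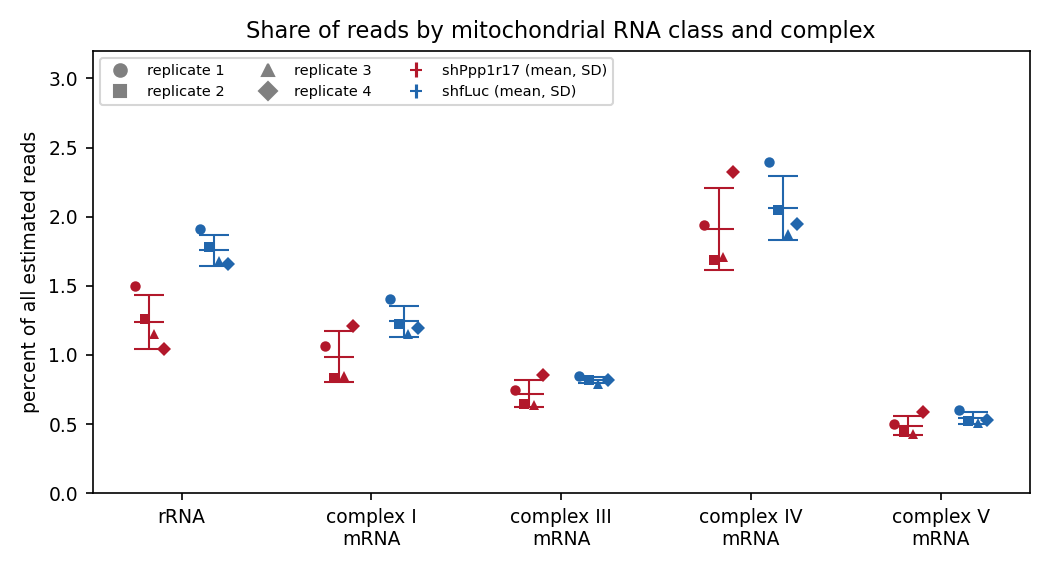
The plot gives the percent of all estimated reads taken by the rRNAs and by the mRNAs of each complex in each library (points), with mean and SD, shPpp1r17 in red to the left of shfLuc in blue. Only the rRNA groups, at 1.045% to 1.502% in shPpp1r17 and 1.661% to 1.91% in shfLuc, do not overlap.

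Ratios within the mitochondrial RNA do not depend on how many nuclear reads a library holds, and several of them separated the groups. They are given as descriptions, without a test. Several share genes, and how often ratios or shares of other genes separate these groups was not computed. The ratio of rRNA to mRNA reads was 0.3537, 0.3497, 0.3184 and 0.2102 in shPpp1r17 1 to 4, against 0.3639, 0.3854, 0.3883 and 0.37 in shfLuc 1 to 4. Every shPpp1r17 library was below every shfLuc library, narrowly in libraries 1 and 2 and by far in library 4. The balance of the 2 rRNAs differed too, and the ratio of mt-Rnr2 to mt-Rnr1 was 7.725, 6.745, 6.348 and 6.022 in shPpp1r17, against 8.754, 9.063, 8.142 and 8.012 in shfLuc. In both ratios, amount of rRNA and capture by the mRNA kit cannot be told apart.

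Among the mRNAs, the balance between complex IV and complex I differed. The ratio of complex IV to complex I reads was 1.822, 2.027, 2.021 and 1.923 in shPpp1r17, against 1.703, 1.668, 1.627 and 1.63 in shfLuc, so all shPpp1r17 libraries lay above all shfLuc libraries. Of all mitochondrial mRNA reads, mt-Nd2 made up 2.93 ± 0.282% in shPpp1r17 and 3.68 ± 0.111% in shfLuc, and mt-Nd4 made up 6.69 ± 0.341% and 7.46 ± 0.0702% (SD, n = 4 each); neither pair of groups overlapped. mt-Nd4l made up 0.316 ± 0.0472% in shPpp1r17 and 0.406 ± 0.0179% in shfLuc, also without overlap, whereas mt-Nd4l relative to mt-Nd4, with which it shares an mRNA, overlapped between the groups. The shares of mt-Cytb, 17.57 ± 0.324% in shPpp1r17 and 17.58 ± 0.991% in shfLuc, were close to each other. mt-Co3 made up 20.02 ± 0.798% of these reads in shPpp1r17 and 18.29 ± 1.57% in shfLuc, with overlap.

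**Figure D4:**
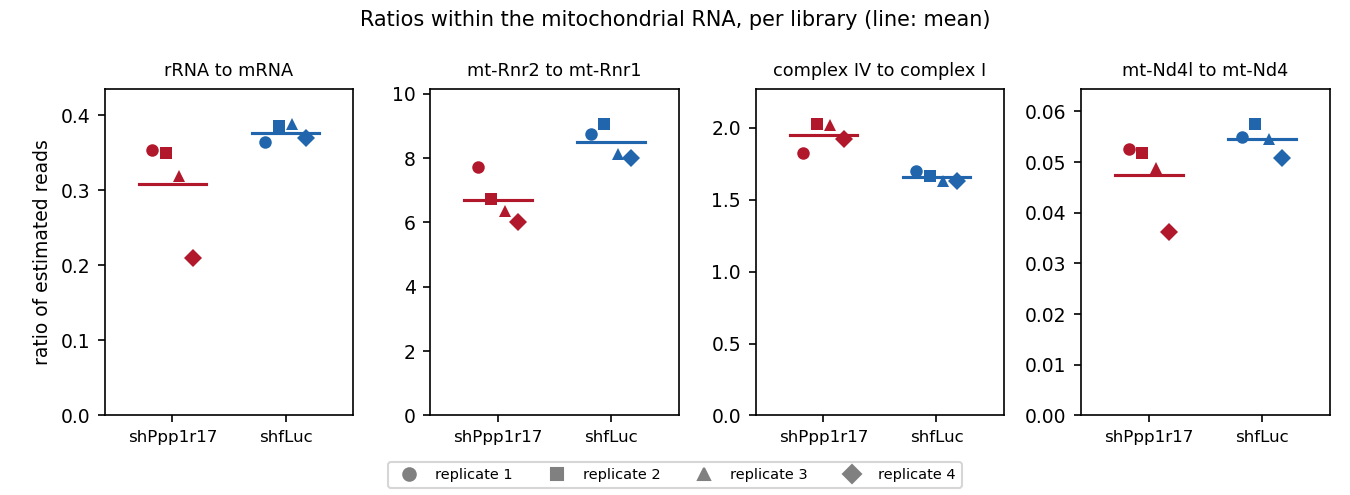
The plot gives ratios of estimated reads in each library (points) with group means (lines), shPpp1r17 left of shfLuc. The groups do not overlap for rRNA to mRNA, mt-Rnr2 to mt-Rnr1 and complex IV to complex I, and they overlap for mt-Nd4l to mt-Nd4, where shPpp1r17 replicate 4 lies lowest at 0.0363.

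Nuclear pseudogenes held a large part of the reads of some members. A search of the nuclear transcripts for stretches of at least 100 bases with at least 95% identity found copies of mt-Nd2, mt-Co1, mt-Co2, mt-Atp6, mt-Co3, mt-Nd3, mt-Nd4l, mt-Nd4 and mt-Nd5, and none of mt-Rnr1, mt-Rnr2, mt-Nd1, mt-Atp8, mt-Nd6 or mt-Cytb. Neighbouring pseudogenes on chromosome 1 repeat a run of the mitochondrial genome (GRCm38, minus strand, from Gm28439 at 24611535 to Gm29216, which ends at 24616197). The copy of mt-Atp6 there, Gm10925, is identical to it over 678 bases and was assigned 41.5% to 47.1% of the reads of the pair, between 73954 and 141502 reads in a library.

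The copies of mt-Co1, mt-Co3 and mt-Co2 on chromosome 1 took 18.6% to 22.1%, 12.6% to 15.9% and 10.3% to 12% of their pairs, and those of mt-Nd3, mt-Nd4l and mt-Nd4 took at most 4.01%. Copies elsewhere took at most 0.0281%. The copy of mt-Nd4l, Gm10222, had a log2 fold change of -0.70 (SE 0.20, adjusted p = 0.0561 in edgeR) and that of mt-Co1, Gm29216, one of -0.23 (SE 0.069, adjusted p = 0.0632), both like their mitochondrial genes in sign. With the reads of all copies added to their genes, which was decided on after seeing the data, the genes that passed were again mt-Rnr2 (-0.54, adjusted p = 0.0127), mt-Nd4l (-0.56, adjusted p = 0.0129) and mt-Nd2 (-0.50, adjusted p = 0.0358). The share of all members then was 6.06 ± 0.730% in shPpp1r17 and 7.21 ± 0.535% in shfLuc.

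**Figure D5:**
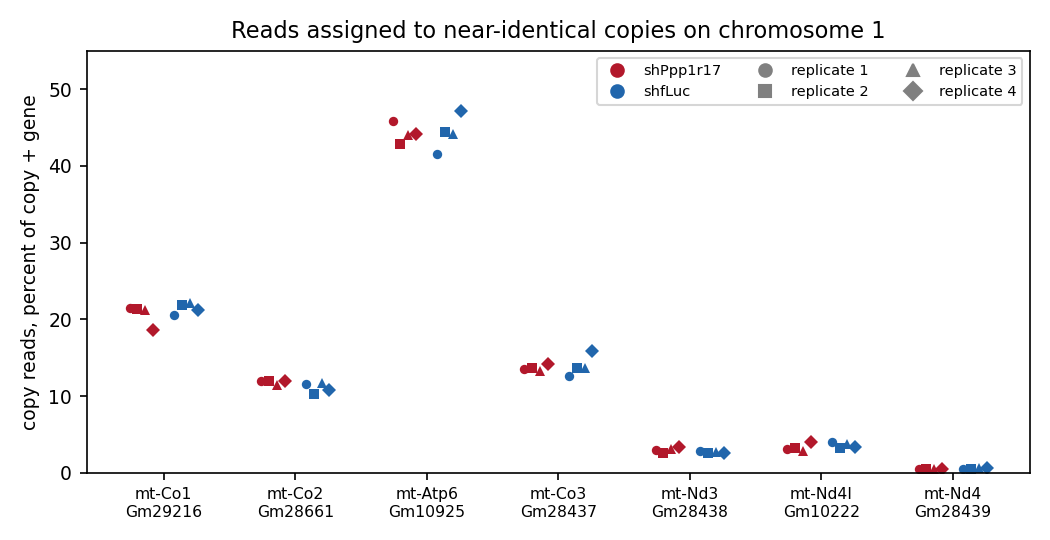
The plot gives, for 7 members, the reads assigned to the copy on chromosome 1 as a percent of copy and gene together, per library, with shPpp1r17 in red and shfLuc in blue. Gm10925, the copy of mt-Atp6, holds 41.5% to 47.1%, and the groups overlap for all 7 pairs.

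The libraries held 23070147 to 33907984 estimated reads, and the shPpp1r17 libraries were not alike. The targeted gene, Ppp1r17, stood at 87.7, 2.07, 3.10 and 87.2 CPM in shPpp1r17 1 to 4, against 147, 161, 161 and 171 CPM in shfLuc 1 to 4 (log2 fold change -1.83, SE 0.80, adjusted p = 0.197 in edgeR; exact two-sided permutation p = 0.0286). The libraries with little Ppp1r17, 2 and 3, are those with the lowest mitochondrial mRNA shares, while the rRNA share was lowest in library 4. Markers of oligodendrocytes and microglia were highest in libraries 2 and 3 as well. Oligodendrocyte markers summed to 1416, 2172, 2322 and 1316 CPM in shPpp1r17, against 1274 to 1322 CPM in shfLuc (4 of 10 rose, 0 fell). Microglia and macrophage markers summed to 642, 1001, 892.3 and 507 CPM in shPpp1r17, against 330.6 to 523.4 CPM in shfLuc (6 of 11 rose, 0 fell). All 5 blood cell markers rose, at 637.7 to 1231 CPM in shPpp1r17 and 328.2 to 566.7 CPM in shfLuc. Of all genes tested, 3.39% were called higher and 2.66% lower. In edgeR 1050 genes were called in all, and 37 without the shPpp1r17 libraries 2 and 3.

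Neuron markers summed to 4619 to 5072 CPM in shPpp1r17 and 4660 to 4736 CPM in shfLuc (1 of 10 rose, 3 fell), and astrocyte markers to 3534 to 3893 CPM and 3670 to 4081 CPM (2 of 10 rose, 3 fell). Endothelial markers summed to 126.8 to 214.5 CPM in shPpp1r17 and 120.2 to 145.3 CPM in shfLuc (1 of 6 rose, 0 fell). Of 12 markers of the dorsomedial and tuberal hypothalamus, 10 were tested and 0 passed in either direction (7 were below 0); without Ppp1r17 they summed to 304.7 to 466.5 CPM in shPpp1r17 and 399.2 to 505.5 CPM in shfLuc. The shares over all genes tested were 3.39% called higher and 2.66% called lower. No marker on these lists was at 0 reads in any library. The part of these cell types in the mitochondrial differences was not tested.

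Few nuclear genes of mitochondrial RNA synthesis and oxidative phosphorylation passed the test. Of 172 tested genes on 11 such lists, 7 rose and 5 fell, 6.98% in either direction against 6.06% of all genes tested, and the log2 fold changes had a median of 0.024. This split turned with the scaling: 1 was called higher and 8 lower with the offset for length and GC content, and 2 higher and 7 lower with limma on log2(TPM + 1). Of the 21 genes of mitochondrial RNA processing, stability and decay, 3 fell and 0 rose (median -0.11). Of all genes tested, 2.66% were called lower and 3.39% higher. Fastkd2, which in human cells binds mt-Rnr2 and is needed to assemble the large ribosomal subunit, stood at 40.6, 30.3, 35.1 and 38.2 CPM in shPpp1r17, against 51.5, 46.4, 47.0 and 45.8 CPM in shfLuc (log2 fold change -0.40, SE 0.095, adjusted p = 0.0291 in edgeR). Grsf1, an RNA-binding protein of the granules where mitochondrial RNA is processed, stood at 74.6, 55.7, 58.0 and 79.5 CPM in shPpp1r17, against 88.0, 92.3, 90.2 and 85.5 CPM in shfLuc (log2 fold change -0.41, SE 0.11, adjusted p = 0.0435). For Rexo2, which breaks down short RNA fragments, the log2 fold change was -0.34 (SE 0.085, adjusted p = 0.0366). None of the 3 genes overlapped between the groups, but they were named because they passed, so this adds no further support. Among all genes tested, 6.74% lay lower without overlap. Without the shPpp1r17 libraries 2 and 3 none of the 3 passed in edgeR (unadjusted p was below 0.05 for 3 genes of the list).

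None of the 12 genes of mitochondrial transcription passed; the smallest p belonged to Polrmt, the mitochondrial RNA polymerase, at 7.31 ± 0.295 CPM in shPpp1r17 and 9.04 ± 0.510 CPM in shfLuc (log2 fold change -0.31, SE 0.13, adjusted p = 0.193 in edgeR). Of 16 genes of mitochondrial DNA replication and maintenance, 15 were below 0 (median -0.11), 1 fell and 1 rose. Over all 17339 genes tested, 8570 were below 0, and 2.66% were called lower and 3.39% higher. Rrm2b, a subunit of the enzyme that makes deoxynucleotides, fell by 0.64 (SE 0.16, adjusted p = 0.0358) on the log2 scale. Slc25a4, the ADP/ATP carrier, rose by 0.27 (SE 0.054, adjusted p = 0.0161). Of the 12 nuclear regulators of mitochondrial gene expression, 11 were below 0 (median -0.18), against 8570 of all 17339 genes tested, and none passed. The smallest p was that of Ppara, a receptor for fatty acids, with -1.51 (SE 0.46, adjusted p = 0.0718 in edgeR). None of the 20 genes of rRNA and tRNA modification or of the 16 of mitochondrial mass and import passed. Their smallest p-values were those of Nsun2, an RNA methyltransferase (log2 fold change 0.25, SE 0.13, adjusted p = 0.265), and of Tomm20, an import receptor (0.17, SE 0.078, adjusted p = 0.207).

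Most nuclear partners of the mitochondrial subunits did not pass the test. Among all genes tested, 3.39% were called higher and 2.66% lower. Of 37 genes listed as nuclear subunits of complex I, 3 rose and 1 fell, and their median log2 fold change was 0.075, against -0.31 for the 7 mitochondrial ones. Ndufa4 (log2 fold change -0.31, SE 0.11, adjusted p = 0.116 in edgeR) was counted on this list and not under complex IV. Ndufc2, an accessory subunit, stood at 312, 302, 334 and 309 CPM in shPpp1r17, against 260, 236, 223 and 246 CPM in shfLuc (log2 fold change 0.38, SE 0.069, adjusted p = 0.0124 in edgeR). The accessory subunits Ndufa11 and Ndufa6 rose by 0.27 and 0.28, and Ndufab1, which is also the acyl carrier protein of mitochondria, fell by 0.72 on the log2 scale. Of 10 nuclear subunits of complex IV, Cox4i1 (0.32, SE 0.082, adjusted p = 0.0370) and Cox7c (0.29, SE 0.080, adjusted p = 0.0493) rose, and the median was 0.17; 0 passed with limma on log2(TPM + 1). Of 9 nuclear subunits of complex III, Uqcrh, which helps cytochrome c to dock, rose by 0.45 (SE 0.093, adjusted p = 0.0183). None of these rises in complexes I, III and IV passed with the offset for length and GC content. None of the 4 subunits of complex II or of the 15 of complex V passed; the smallest p-values there were those of Sdha (-0.054, SE 0.071, adjusted p = 0.709) and Atp5g2 (0.39, SE 0.11, adjusted p = 0.0581). The difference between the nuclear and the mitochondrial subunits was not tested.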

How the data were processed

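Each deposited table gives, per the file headers, a gene's length, effective length, TPM and estimated count. At most 10.1% of the genes of a library had a fractional value among the deposited expected counts, which were rounded to integers. Tools named in the submitters' processing notes are bcl2fastq, DRAGEN, edgeR and limma, with no version; the sources used here give neither build nor annotation. RNA was prepared with a kit for small samples and a SMARTer mRNA kit, per the labels' protocols. Symbols were matched for 55141 of 55487 identifiers; unmatched ones held up to 0.0319% of reads.

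Groups came from the sample titles. The quasi-likelihood test of edgeR 4.0.16 (R 4.3.3) was run, with the group as its single term, on all 8 libraries after filterByExpr (at least 10 reads, 15 in total) and TMM scaling, with Benjamini-Hochberg adjustment over 17339 genes; CPM values are TMM-scaled, and each SE follows from a gene's F value and log2 fold change. This edgeR test was also run on simulated counts in which the libraries of a group were alike. That setting does not cover the split among the shPpp1r17 libraries. Chi-square per degree of freedom between libraries within groups was 7.48 to 41.1, above counting noise, so none was treated as a repeat of another; this does not show that they came from separate animals. Without molecular identifiers, PCR duplicates count as reads. Copies were searched with blastn 2.17.0, and figures were drawn with matplotlib 3.10.9.

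The members and lists were chosen with earlier results of these data known. All rRNAs and mRNAs are named, the 5 tRNAs with the highest mean TPM, and from each nuclear list the genes called, up to 4, or else the one with the smallest p. Alternatives were RLE factors, library totals, nuclear library sizes, other filters, DESeq2 1.42.0, limma 3.58.1 (voom, with and without quality weights, and on log2 TPM with pseudocounts of 1 and 0.1), effective length, length and GC offsets, the replicate number as a block, libraries left out, TPM shares, and the copies' reads added.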

Additional observations from a re-analysis of the deposited data

How the results depend on the processing

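The count of 3 mitochondrial genes held with RLE factors, library totals, nuclear library sizes, limma voom, limma on log2 TPM, both offsets, the stricter filter and the added copies. It was 4 without a filter, and 5 with DESeq2 and with quality weights. Leaving out 1 library gave 0 to 6: 0 without shPpp1r17 3, shfLuc 2 or shfLuc 3 (edgeR; unadjusted p below 0.05 for 7, 8 and 8 members), 2 without shPpp1r17 2, shfLuc 1 or shfLuc 4, 5 without shPpp1r17 1 and 6 without shPpp1r17 4. Without shPpp1r17 2 and 3 it was 0. All genes called numbered 1050 (56.0% higher; 38.8% higher of 797 on log2(TPM + 1)), 1903 with DESeq2, 1763 with quality weights, 0 to 1548 with 1 library left out and 37 without shPpp1r17 2 and 3. In edgeR without shfLuc 2 and without shfLuc 3, 0 genes were called and 3309 and 3146 had an unadjusted p below 0.05. The 12 nuclear pathway genes became 21 with quality weights, 0 to 15 with 1 library left out and 0 without shPpp1r17 2 and 3.

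The labels do not say whether same-numbered libraries are paired. Their deviations correlated at -0.0116, 0.0354, 0.00569 and 0.116, and 2 of 4 shPpp1r17 libraries correlated best with their own number. Such correlations over all genes cannot settle whether the numbers mark a pair or a batch. The SE of mt-Rnr2 was 0.0735 with the replicate number as a block and 0.0998 without it. With the replicate block, 3 mitochondrial, 5 nuclear pathway and 726 genes were called in all, the nuclear ones 2 higher and 3 lower, against 7 higher and 5 lower without the block.

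Leaving out 1 library, the log2 fold change of mt-Rnr2 ran from -0.66 to -0.46, that of mt-Nd4l from -0.67 to -0.50 and that of mt-Nd2 from -0.61 to -0.41. The rRNA share differed by -0.604 to -0.451 percentage points, that of all members by -1.30 to -0.829 points, the rRNA to mRNA ratio by -0.0841 to -0.0363 and the complex IV to complex I ratio by 0.265 to 0.334. As a share of TPM, all members differed by -2.23 points. Without shPpp1r17 2 and 3, the complex IV to complex I ratio differed by 0.216, mt-Rnr2 by -0.50 and mt-Nd4l by -0.43 (adjusted p = 0.139 and 0.145). All 15 rRNAs and mRNAs were below 0 in every fit except without shPpp1r17 2 (14), without shfLuc 1 (12) and without shPpp1r17 2 and 3 (11). The causes of these changes were not tested. Low read counts limit the tRNAs, and also weakly expressed nuclear genes such as Ppara (mean 0.603 CPM in shPpp1r17 and 1.75 CPM in shfLuc).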
